A study of Mus musculus with 2 samples.

Results

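The genes described here were 10 transcription factors of the Schwann cell lineage and its injury response, *Sox10*, *Foxd3*, *Olig1*, *Sox2*, *Jun*, *Runx2*, *Pou3f1*, *Egr2*, *Zeb2* and *Sox9*, taken by symbol from the 32287 genes of the count matrices. Each symbol matched 1 row. They were measured in 2 droplet-based scRNA-Seq libraries of mouse hind limb muscle at 7 days post injury (7 dpi), 1 library from muscle injected with goat anti-mouse IgG and 1 from muscle injected with a neutralizing antibody against SPP1, a secreted phosphoprotein also called osteopontin (SPP1-nAb). Per the study's methods, both groups were male mice of 10 to 16 weeks with a bilateral crush of the peroneal nerve, and 2 μg of antibody in 10 μL was injected into the tibialis anterior (TA) every 2 days. The labels gave the strain as C57BL/6J and the tissue as TA and gastrocnemius. The titles named the S100GFP-positive sort of a reporter line whose GFP is driven by the S100B promoter, whereas the protocol listed both GFP+ and GFP- live cells. The methods stated that the scRNA-Seq work used male animals and pooled them, and the number of animals in each library was not given in the sources used here.

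Cells were assigned to a class when at least 3 marker genes of that class, and of no other class, had a UMI (unique molecular identifier, a count of captured transcripts). The gate gave 431 Schwann cells of 23385 kept IgG barcodes and 439 of 24758 kept SPP1-nAb barcodes, with a median of 2716 and 3251 UMIs per cell. None of the 10 factors was used in the gate. *Cdh19*, a cadherin of the neural crest lineage, was 1 of the 12 Schwann markers of the gate. It had a UMI in 94.4% of the gated IgG Schwann cells and in 96.8% of those with SPP1-nAb. *S100b* had one in 22.7% and 19.4%, and *Kcnj10*, the lowest of the 12, in 0.928% and 1.59%. Since these markers set the gate, their shares are no separate support for identity. Markers of the most abundant other class, mononuclear phagocytes, summed to 106 CPM (UMIs per 1000000 UMIs) in IgG Schwann cells and 165 CPM with SPP1-nAb, against 10032 and 9455 CPM in phagocytes themselves. Fibroblast markers summed to 126 and 101 CPM in Schwann cells. All 9 T and NK cell markers were at 0 in IgG Schwann cells and 7 of the 9 with SPP1-nAb. Barcodes with at least 3 markers of a second class had been left out, so these low values were partly set by the gate. The libraries shared 163 barcodes, of which 4 and 5 were in the Schwann cells. With 1 library per antibody no test between antibodies was possible, the antibody and the library cannot be told apart, and every interval below is a 95% interval for counting error only.

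After a nerve is cut or crushed, Schwann cells leave the myelinating or ensheathing state, dedifferentiate and become repair cells that clear myelin and secrete trophic factors. SOX10 is the lineage factor kept throughout, JUN drives the repair state, SOX2 marks the immature and repair states and holds back myelination, and POU3F1 (OCT6) leads promyelinating cells to EGR2 (KROX20), the master regulator of myelin genes. ZEB2 represses inhibitors of differentiation, and FOXD3 is a neural crest factor of early glial precursors.

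All 10 genes were protein coding in GENCODE M39 on the GRCm39 build. The 250 bases before the annotated start of the canonical transcript are shown for 4 of them. For *Egr2* this window lies inside the gene coordinates given below. Capitals mark the motifs searched on both strands, which were the SOX motif ACAANG, the AP-1 motif TGANTCA, the ZEB-bound E-box CACCTG, the variant AP-1 site TGACATCA known from the *Jun* promoter, and the CArG box bound by SRF. The window of *Jun* lies at chr4:94940460-94940709 on the minus strand, that of *Egr2* at chr10:67373442-67373691, that of *Pou3f1* at chr4:124550350-124550599 and that of *Olig1* at chr16:91066410-91066659, all on the plus strand.
Jun: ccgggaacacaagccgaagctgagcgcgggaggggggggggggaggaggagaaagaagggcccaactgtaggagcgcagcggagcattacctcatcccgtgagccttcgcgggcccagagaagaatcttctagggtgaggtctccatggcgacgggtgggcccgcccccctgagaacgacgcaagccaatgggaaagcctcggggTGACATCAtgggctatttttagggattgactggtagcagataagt
Egr2: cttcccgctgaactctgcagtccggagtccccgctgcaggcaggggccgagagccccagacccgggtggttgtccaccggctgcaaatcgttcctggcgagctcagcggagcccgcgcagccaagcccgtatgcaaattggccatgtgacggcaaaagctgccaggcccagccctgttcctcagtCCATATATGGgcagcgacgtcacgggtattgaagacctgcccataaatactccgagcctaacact
Pou3f1: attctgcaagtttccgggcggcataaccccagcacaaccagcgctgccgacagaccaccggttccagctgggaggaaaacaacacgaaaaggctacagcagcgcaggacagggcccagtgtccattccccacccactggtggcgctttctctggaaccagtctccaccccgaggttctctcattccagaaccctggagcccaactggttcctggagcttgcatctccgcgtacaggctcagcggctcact
Olig1: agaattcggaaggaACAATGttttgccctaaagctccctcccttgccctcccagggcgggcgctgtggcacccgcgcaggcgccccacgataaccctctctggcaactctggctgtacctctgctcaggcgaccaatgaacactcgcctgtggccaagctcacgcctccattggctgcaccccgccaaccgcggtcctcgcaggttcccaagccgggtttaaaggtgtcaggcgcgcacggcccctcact
The *Jun* window held the variant AP-1 site, a match set by the choice of a motif known from that promoter. The site was found in 2.61% of the 21757 windows of the same length before canonical transcripts of protein-coding genes. The *Egr2* window held a CArG box, found in 1.40% of windows. The *Olig1* window held 1 SOX motif, found in 34.9% of windows. Among the other 6 windows, that of *Sox9* held the AP-1 motif, found in 6.18% of windows. The CACCTG E-box, found in 17.7% of windows, was in none of the 10.

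*Sox10*, *Sox2*, *Foxd3* and *Olig1* were nearly restricted to Schwann cells. *Pou3f1* and *Runx2* were many-fold higher there than in any other class of at least 20 cells in both libraries. Schwann cells held 96.7% and 92.1% of the *Sox10* UMIs of gated IgG and SPP1-nAb cells, although they were only 2.18% and 2.06% of those cells. These shares leave out the kept barcodes that met several gates (61 and 96 *Sox10* UMIs) or no gate (42 and 39). Of the 10 factors, 6 were at least 2-fold higher in Schwann cells than in all other gated cells in both libraries, where 27.7% of 16441 genes were. None was at least 2-fold lower in both, where 12.9% of genes were.

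*Sox10* (ENSMUSG00000033006, chromosome 15, 79039108 to 79049469, minus strand, 4 exons in its canonical transcript) was at 305 CPM (275 to 337; 380 UMIs) in IgG Schwann cells and 277 CPM (251 to 305; 419 UMIs) with SPP1-nAb. Its level in phagocytes was 0.0548% and 0.104% of that, close to the 0.0447% and 0.103% of the Schwann marker *Cdh19*. *Foxd3* (ENSMUSG00000067261, chromosome 4, 99544536 to 99546859, plus strand, 1 exon) was at 190.4 CPM (167 to 216) and 179 CPM (158 to 201). *Olig1* (ENSMUSG00000046160, chromosome 16, 91066660 to 91068821, plus strand, 1 exon), a basic helix-loop-helix factor best known from oligodendrocytes, was at 168 CPM (146 to 192) and 169 CPM (149 to 192). No UMI of its neighbour in function, *Olig2*, was found in the Schwann cells of either library, which allows a level of up to 2.41 CPM (IgG) or 1.99 CPM (SPP1-nAb). The intervals of the 2 libraries overlapped for each of these factors.

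*Sox2* (ENSMUSG00000074637, chromosome 3, 34704554 to 34706610, plus strand, 1 exon) was at 304 CPM (275 to 337) in IgG Schwann cells and 330.3 CPM (302 to 361) with SPP1-nAb. In every other class of at least 20 cells in both libraries it stayed at or below 2.06 CPM. *Sox2* lies within the long noncoding gene *Sox2ot* on the same strand, which was at 235 and 211 CPM in Schwann cells, and how reads in the shared bases were counted was not given in the sources used here. *Runx2* (ENSMUSG00000039153, chromosome 17, 44806874 to 45125684, minus strand, 7 exons), known as the bone factor and also induced in injured nerve, was at 1949 CPM (1872 to 2028) and 2032 CPM (1961 to 2105). Among classes of at least 20 cells in both libraries, that was 24.5-fold over the next in IgG (neutrophils, 79.4 CPM). In SPP1-nAb it was 18.4-fold over the next (fibroblasts, 110.3 CPM). Plasmacytoid dendritic cells, only 18 and 33 cells, were above these classes, at 730.3 and 558 CPM. *Pou3f1* (ENSMUSG00000090125, chromosome 4, 124550600 to 124554448, plus strand, 1 exon) was at 420.1 CPM (385 to 458) and 381 CPM (350.1 to 413), 21.7-fold over tenocytes in IgG and 16.7-fold over endothelial cells in SPP1-nAb. Schwann cells held 69.4% and 66.5% of its UMIs in gated cells and 56.8% and 51.7% of those of *Runx2*.

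*Jun*, *Zeb2*, *Egr2* and *Sox9* were not particular to Schwann cells. *Jun* (ENSMUSG00000052684, chromosome 4, 94937271 to 94940459, minus strand, 1 exon), the AP-1 subunit that drives repair in Schwann cells, was at 1271 CPM (1210 to 1336) in IgG Schwann cells and 1231 CPM (1176 to 1288) with SPP1-nAb, below the 2873 and 2483 CPM of tenocytes. Schwann cells ranked 6 of 10 classes for *Jun* with IgG and 3 of 10 with SPP1-nAb. *Zeb2* (ENSMUSG00000026872, chromosome 2, 44873644 to 45007464, minus strand, 9 exons) was at 1595 CPM (1526 to 1667) and 1457 CPM (1397 to 1519), second to the 1914 and 1874 CPM of phagocytes and above the 979 and 919 CPM of mural cells. Its antisense transcript *Zeb2os* had 11 and 9 UMIs in Schwann cells.

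*Egr2* (ENSMUSG00000037868, chromosome 10, 67371305 to 67378018, plus strand, 2 exons) was at 45.0 CPM (34.0 to 58.4; 56 UMIs) in IgG Schwann cells and 26.5 CPM (18.9 to 36.1; 40 UMIs) with SPP1-nAb, below the 94.1 and 70.5 CPM of phagocytes and the 70.4 and 85.6 CPM of tenocytes. Only 0.822% and 0.530% of its UMIs in gated cells were in Schwann cells. *Sox9* (ENSMUSG00000000567, chromosome 11, 112673009 to 112678586, plus strand, 3 exons), a crest and cartilage factor, had 3 UMIs in IgG Schwann cells (2.41 CPM; 0.497 to 7.04) and 17 in SPP1-nAb Schwann cells (11.3 CPM; 6.55 to 18.0). Among classes of at least 20 cells in both libraries it was highest in fibroblasts (124 and 76.6 CPM) and muscle progenitors (98.0 and 129 CPM). The 15 nerve sheath cells of the IgG library, with 9 *Sox9* UMIs, were at 242 CPM (111 to 460).

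**Figure D1:**
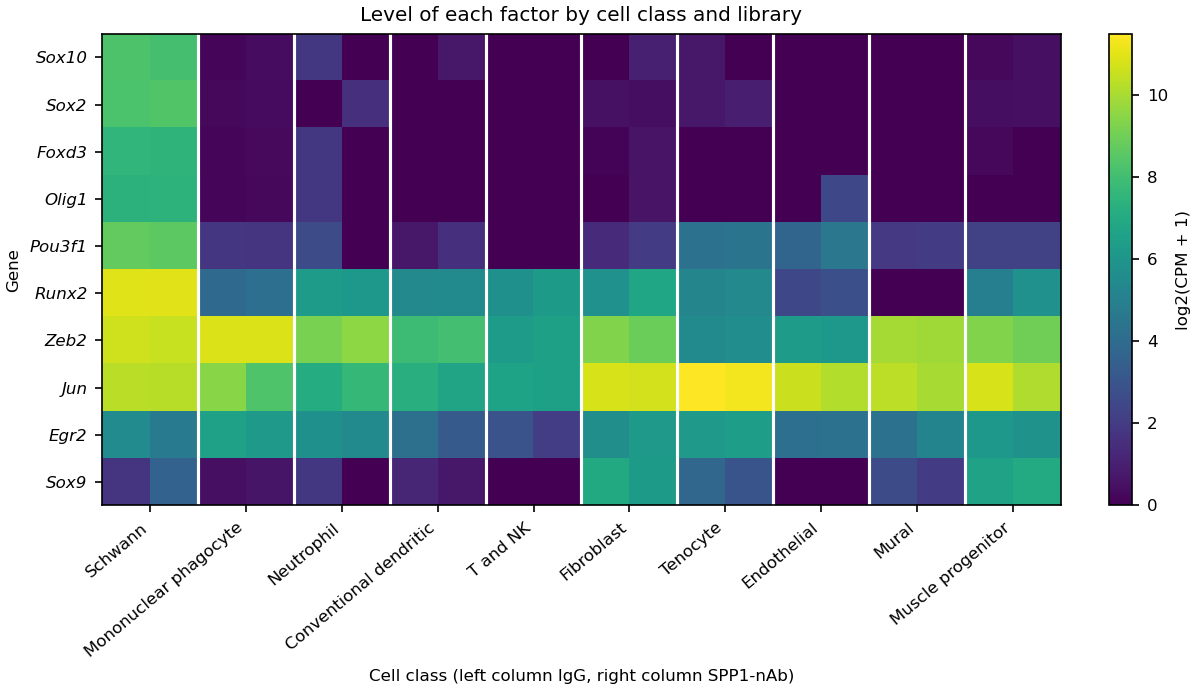
Colour gives log2(CPM + 1) of each factor (rows) in each cell class, with the IgG library in the left and the SPP1-nAb library in the right column of every pair. The upper 4 rows are bright in Schwann cells alone, *Zeb2* and *Jun* are bright in many classes (*Jun* 2873 CPM in IgG tenocytes), and *Sox9* is brightest in fibroblasts and muscle progenitors.

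Likeness of pattern was measured by Pearson's r of log2(CPM + 1) over 21 sums of 11 cell classes and 2 libraries, for genes with at least 100 UMIs that were not gate markers. The 3 genes most like *Sox10* were *Foxd3* (r = 0.99), *Klk9* (r = 0.99) and *Syt6* (r = 0.99). The gene most like *Sox2* was *Syt4* (r = 0.99), that most like *Olig1* was the noncoding gene *Gm12688* (r = 0.99), which overlaps *Foxd3* on the opposite strand, and that most like *Pou3f1* was *Csmd3* (r = 0.93). *Jun* was most like *Laptm4a* (r = 0.96), *Runx2* most like *Slc37a1* (r = 0.80) and *Zeb2* most like *Fam13b* (r = 0.78). Outside Schwann cells *Sox10*, *Sox2*, *Foxd3* and *Olig1* reached at most 4.55 CPM in these classes, so the Schwann cell sums largely set their r values. The sums also share cells, depth and library, so the r values are descriptions.

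Within Schwann cells the factors had UMIs in many cells, except *Egr2* and *Sox9*, which had few UMIs. To compare shares of cells, each cell was thinned to 2000 UMIs, which left out 104 IgG and 54 SPP1-nAb Schwann cells. A *Sox10* UMI was then found in 44.3% (38.9 to 49.9) of Schwann cells with IgG and in 45.7% (40.7 to 50.8) with SPP1-nAb (56.1% and 57.2% before thinning), and in 0.0398% and 0.0186% of phagocytes thinned alike. *Sox2* was found in 39.4% and 42.6% of Schwann cells, *Foxd3* in 30.6% and 28.6%, *Olig1* in 25.4% and 27.3% and *Pou3f1* in 40.1% and 37.9%. For *Runx2* the shares were 74.3% (69.2 to 79.0) and 80% (75.7 to 83.9). With cells thinned to 1000 UMIs they were 57.9% (53 to 62.7) and 69.4% (64.9 to 73.7), intervals that did not overlap. With cells thinned to 3000 UMIs they were 73.4% (66.2 to 79.8) and 82.7% (77.5 to 87.2). At 2000 UMIs *Zeb2* was found in 87.5% and 87.8% of Schwann cells but also in 92.0% and 91.3% of phagocytes.

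At that depth 10.1% of IgG and 9.35% of SPP1-nAb Schwann cells had no UMI of *Sox10*, *Sox2*, *Pou3f1*, *Olig1* or *Foxd3*. In the IgG library 33.3% had UMIs of exactly 2 of these 5, and 1 of 327 cells had all 5. Cells with and without a *Sox10* UMI had *Sox2* in similar shares, 37.2% and 41.2% in IgG and 41.5% and 43.5% in SPP1-nAb, with overlapping intervals.

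*Egr2* was the exception, with a UMI in 6.73% (4.26 to 10.0) and 4.94% (3.00 to 7.60) of thinned Schwann cells. The 10 cells with the most *Egr2* UMIs held 50% of them in IgG and 47.5% in SPP1-nAb, against 8.09% to 22.0% for *Sox10*, *Sox2*, *Foxd3*, *Olig1*, *Pou3f1*, *Runx2*, *Zeb2* and *Jun*. *Egr2* had only 56 and 40 UMIs, in 37 and 31 cells, and so low a count by itself raises the share of 10 cells. The difference in this share therefore does not show that *Egr2* was concentrated in few cells. Phagocytes had an *Egr2* UMI in 14.7% and 11.9% of thinned cells, above the Schwann cell shares. Schwann cells with an *Egr2* UMI had summed fibroblast markers of 282 CPM in IgG against 109 CPM in those without, and 101 CPM on both sides in SPP1-nAb. The part of transcripts from other classes in the *Egr2* level was not tested. Free RNA was estimated at 1.60% and 2.25% of all Schwann cell UMIs, and only ratios and gene counts were recomputed without it.

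Schwann cells were then split by a UMI of *Reln*, the secreted glycoprotein reelin, into 184 positive and 247 negative cells in IgG and 215 and 224 in SPP1-nAb, with median UMIs of 2804 and 2629, and 3262 and 3158. *Pou3f1* was lower and *Egr2* higher by about 2-fold or more in the *Reln*-positive cells of both libraries, *Sox2*, *Olig1* and *Runx2* were moderately higher, and the intervals of *Jun* and *Sox10* included 0 in both. Of the 9 factors with at least 20 Schwann cell UMIs in each library, 2 differed by 2-fold in both libraries, where 6.17% of 7201 genes did, 2.68% being higher and 3.49% lower in *Reln*-positive cells.

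*Pou3f1* was at 269.9 CPM (229 to 316; 157 UMIs) in *Reln*-positive and 552 CPM (497 to 611; 366 UMIs) in *Reln*-negative IgG cells. In SPP1-nAb it was at 246 CPM (212 to 284; 185 UMIs) and 514 CPM (464 to 568; 390.0 UMIs). The log2 ratio, positive over negative, was -1.03 (-1.31 to -0.76) and -1.06 (-1.32 to -0.81), and the 2 ranges of levels did not overlap in either library. Over 13 other settings per library the ratio stayed between -1.53 and -0.90 with every interval below 0, and 4 of the IgG values were short of 2-fold.

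*Egr2* was at 63.6 CPM (44.8 to 87.7; 37 UMIs) in *Reln*-positive and 28.6 CPM (17.2 to 44.7; 19 UMIs) in *Reln*-negative IgG cells, and at 38.6 CPM (25.8 to 55.4; 29 UMIs) and 14.5 CPM (7.24 to 25.9; 11 UMIs) in SPP1-nAb cells. The log2 ratio was 1.15 (0.32 to 2.03) and 1.41 (0.37 to 2.56). The value stayed above 0 under all 13 other settings per library, between 0.66 and 1.81. In IgG it was below 2-fold with an interval that included 0 under 5 of them, such as 0.83 (-0.00 to 1.69) with a gate of 2 markers and 0.82 (-0.10 to 1.78) with a gate of 4, and in SPP1-nAb under 1 of them, so that the 2-fold difference in both libraries did not hold there. 

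*Sox2* was at 354 CPM (307 to 406) in *Reln*-positive and 261 CPM (223 to 303) in *Reln*-negative IgG cells, and at 379 CPM (336 to 426) and 282 CPM (245 to 322) in SPP1-nAb cells. Its log2 ratios were 0.44 (0.14 to 0.74) and 0.43 (0.17 to 0.69), and the second was 0.10 when Schwann cells with any phagocyte, fibroblast or muscle progenitor marker were left out, a setting chosen after seeing the data. With cells thinned to 2000 UMIs both *Sox2* intervals included 0, at 0.41 (-0.02 to 0.83) and 0.31 (-0.05 to 0.67). *Sox2ot* had ratios of 1.36 (1.00 to 1.74) and 1.29 (0.94 to 1.66), larger than those of *Sox2*. *Olig1* had log2 ratios of 0.59 (0.18 to 1.00) and 0.42 (0.05 to 0.79), the second of which was 0.0032 after thinning to 2000 UMIs. *Runx2* was at 2351 CPM (2228 to 2479) against 1595 CPM (1501 to 1694) in IgG and at 2304 CPM (2197 to 2415) against 1762 CPM (1669 to 1859) in SPP1-nAb. Its log2 ratios were 0.56 (0.44 to 0.68) and 0.39 (0.28 to 0.49).

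*Jun* was at 1279 CPM in *Reln*-positive and 1265 CPM in *Reln*-negative IgG cells and at 1199 and 1262 CPM in SPP1-nAb cells, with log2 ratios of 0.02 (-0.13 to 0.16) and -0.07 (-0.21 to 0.06). With a gate of 2 markers the SPP1-nAb ratio of *Jun* was -0.18 (-0.32 to -0.05), an interval below 0. *Sox10* had ratios of -0.29 (-0.59 to 0.01) and -0.12 (-0.40 to 0.17), and *Zeb2* of -0.06 (-0.19 to 0.07) and -0.20 (-0.32 to -0.07). *Foxd3* pointed in different directions in the 2 libraries, at 0.30 (-0.08 to 0.68) in IgG and -0.37 (-0.73 to -0.02) in SPP1-nAb. With thinned cells the values were 0.69 (0.17 to 1.22) and -0.38 (-0.87 to 0.11). Of the *Sox9* UMIs, 16 of 17 in SPP1-nAb and 2 of 3 in IgG were in *Reln*-positive cells.

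**Figure D2:**
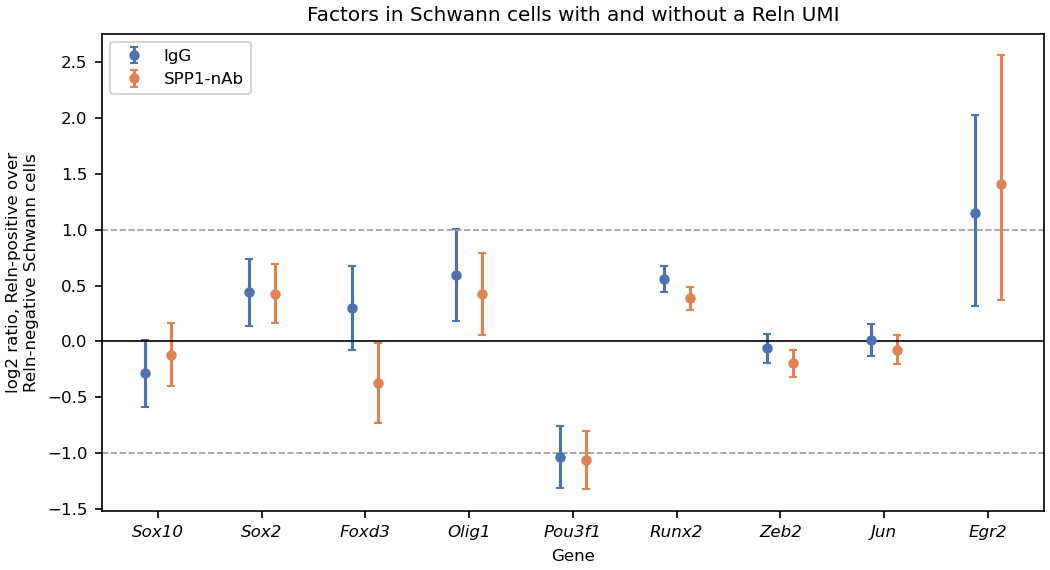
Points give the log2 ratio of the level in *Reln*-positive over *Reln*-negative Schwann cells for 9 factors in the IgG and SPP1-nAb libraries, bars give 95% counting intervals, and dashed lines mark 2-fold. *Pou3f1* lies near -1 and *Egr2* above 1 in both libraries, and *Foxd3* lies on opposite sides of 0.

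Related factors were read beside the members. Of 23 related transcription factors with at least 20 Schwann cell UMIs, 1 (*Pou3f2*, with 15 and 5 UMIs in IgG and SPP1-nAb) was at least 2-fold higher and none 2-fold lower in the *Reln*-positive cells of both libraries, beside 2.68% and 3.49% of all genes. *Pou3f2* fell short of the 20 UMIs in each library that this share requires. *Sox6*, a SOX factor that modulates SOX10 in oligodendrocytes, had log2 ratios of -0.80 (-1.01 to -0.58) and -0.77 (-0.96 to -0.58), and *Zeb1*, the paralog of *Zeb2*, of -0.80 (-1.12 to -0.49) and -0.60 (-0.88 to -0.32). The AP-1 partner *Atf3* was higher, at 0.33 (0.17 to 0.48) and 0.34 (0.21 to 0.47), and *Jund* lower, at -0.37 (-0.59 to -0.15) and -0.38 (-0.57 to -0.18). *Tead1*, the DNA-binding partner of YAP and TAZ, was higher, at 0.42 (0.14 to 0.71) and 0.97 (0.68 to 1.27).

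Among 11 repair effectors with at least 20 UMIs, 1 was at least 2-fold higher and 2 at least 2-fold lower in *Reln*-positive cells of both libraries, beside 2.68% and 3.49% of all genes. The glial ligand *Artn* (artemin) was the higher one, at 1.04 (0.32 to 1.79) and 1.31 (0.63 to 2.03). The neuropeptide gene *Ucn2* (urocortin 2) was the lowest, at -3.49 (-4.18 to -2.86) and -3.72 (-4.42 to -3.10), followed by the adhesion molecule *Ncam1*, at -1.70 (-2.18 to -1.24) and -2.25 (-2.81 to -1.73).  Of 11 myelin program genes, 3 were at least 2-fold higher in both libraries, where 2.68% of all genes were. Of these *Pllp*, which codes for plasmolipin, was at 2.73 (1.47 to 4.27) and 2.41 (1.47 to 3.49). The other 2, *Mag* (18 and 11 UMIs) and *Gjb1* (10 and 13 UMIs), fell short of the 20 UMIs in each library that the share of all genes requires.

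A second split took the cells with UMIs of at least 3 of 12 myelin program genes, 77 in IgG and 73 in SPP1-nAb. *Egr2* was at 103 CPM (67.8 to 150; 27 UMIs) in those and 29.5 CPM (19.8 to 42.4; 29 UMIs) in the other IgG cells, and at 46.0 CPM (25.1 to 77.2; 14 UMIs) and 21.6 CPM (14.1 to 31.6; 26 UMIs) in SPP1-nAb cells. It was the only one of the 9 factors at 2-fold in both libraries, where 1.67% of genes were, with log2 ratios of 1.80 (0.99 to 2.61) and 1.09 (0.04 to 2.08). *Pou3f1* did not differ beyond counting error, at 0.16 (-0.15 to 0.45) and 0.15 (-0.14 to 0.44), and neither did *Jun*, at -0.00 (-0.18 to 0.17) and -0.16 (-0.34 to 0.01). The cells with myelin genes had more UMIs, a median of 3033 against 2694 and of 3739 against 3126.

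UMIs of at least 2 of 8 cell cycle genes were found in 2.32% of IgG and 2.05% of SPP1-nAb Schwann cells. Cells with 1 such gene were not counted, so these are not the shares of all cells with cell cycle transcripts. Over all Schwann cells the UMIs of these genes ranged from 2 and 1 for *Aurkb* to 92 and 68 for *Top2a*. The 10 IgG and 9 SPP1-nAb cells with at least 2 of 8 cell cycle genes had a median of 4996 and 8877 UMIs. *Runx2* was lower in them, at 958 CPM (696 to 1286) against 1987 CPM (1908 to 2068) in IgG and 407 CPM (277 to 578) against 2118 CPM (2043 to 2195) in SPP1-nAb, and passed 2-fold in both libraries, where 9.79% of genes did. *Egr2* did so as well, with 1 UMI in these cells in each library. *Jun* had log2 ratios of -1.82 (-2.60 to -1.14) and -0.94 (-1.38 to -0.54). With so few cells these values describe those cells only.

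Between the antibodies, the levels of the lineage and repair factors in Schwann cells differed little. Of the 10 factors only *Sox9*, with 3 and 17 UMIs, differed by 2-fold, where 4.27% of 9558 genes did, 1.96% being higher and 2.31% lower in SPP1-nAb. The median log2 ratio of SPP1-nAb over IgG was -0.07 over the 10 factors and -0.0036 over all genes. For 7 factors, *Sox10*, *Sox2*, *Foxd3*, *Olig1*, *Pou3f1*, *Jun* and *Runx2*, the interval of the ratio included 0. That of *Sox10* lay below 0 with a gate of 2 markers, at -0.22 (-0.42 to -0.01), and of 4 markers, at -0.24 (-0.46 to -0.01), and that of *Pou3f1* did so as well, at -0.19 (-0.37 to -0.01) and -0.26 (-0.44 to -0.07). The share of all genes with an interval that included 0 was not computed, so the count of 7 has no background to be read against.

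The ratio was -0.14 (-0.34 to 0.07) for *Sox10*, -0.09 (-0.35 to 0.17) for *Foxd3*, 0.01 (-0.26 to 0.28) for *Olig1* and 0.12 (-0.08 to 0.31) for *Sox2*. It was -0.14 (-0.32 to 0.03) for *Pou3f1*. For the factors with the most UMIs the intervals were narrow, at -0.05 (-0.14 to 0.05) for *Jun* and 0.06 (-0.02 to 0.14) for *Runx2*. *Zeb2* was slightly lower in SPP1-nAb, at -0.13 (-0.22 to -0.04), and its interval included 0 with thinned cells, at -0.08 (-0.20 to 0.05).

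*Egr2* was lower in the SPP1-nAb Schwann cells, with a log2 ratio of -0.76 (-1.39 to -0.15). With a gate of 4 markers it was -0.30 (-0.93 to 0.33) and with thinned cells -0.36 (-1.24 to 0.52), and both intervals included 0. The ratio was -0.72 (-1.48 to 0.02) in *Reln*-positive and -0.98 (-2.20 to 0.16) in *Reln*-negative cells. Without the Schwann cells that had any phagocyte, fibroblast or muscle progenitor marker UMI, which left 233 IgG and 183 SPP1-nAb cells, *Egr2* was at 29.1 CPM (18 UMIs) and 27.5 CPM (16 UMIs) and the ratio was -0.08 (-1.15 to 0.97). That interval held both 0 and the ratio over all Schwann cells, and the part of transcripts from other classes in the *Egr2* level was not tested. Of 11 myelin program genes with at least 20 UMIs, 5 were at least 2-fold lower and none 2-fold higher in SPP1-nAb, beside 2.31% and 1.96% of 9558 genes, with a median of -0.99 over the list. *Pmp22* had a ratio of -2.30 (-2.58 to -2.02) and *Mbp*, myelin basic protein, of -1.13 (-1.48 to -0.79), whereas *Pllp* was at 0.47 (-0.11 to 1.07). The paper named *Pmp22*, *Mbp* and *Ncmap* as late glial genes in these same libraries and proposed that SPP1-nAb diminished maturation modules. The list was chosen with earlier results of these data known, so its count is no separate support for that proposal. Schwann cells with UMIs of at least 3 myelin program genes made up 17.9% (14.4 to 21.8) in IgG. In SPP1-nAb they made up 16.6% (13.3 to 20.4), and the intervals overlapped.

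*Sox9* had a log2 ratio of 2.22 (0.43 to 4.64). Its 17 UMIs in SPP1-nAb lay in 16 Schwann cells, which had summed fibroblast markers of 90.6 CPM and muscle progenitor markers of 30.2 CPM, against 101 and 38.1 CPM in the other SPP1-nAb Schwann cells. Without cells holding markers of other classes it had 7 UMIs in SPP1-nAb and 0 in IgG. At 2000 UMIs per cell a *Sox9* UMI was in 0.612% (0.0742 to 2.19) of Schwann cells with IgG and in 2.34% (1.07 to 4.39) with SPP1-nAb, and in 0.0478% and 0.124% of phagocytes.

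**Figure D3:**
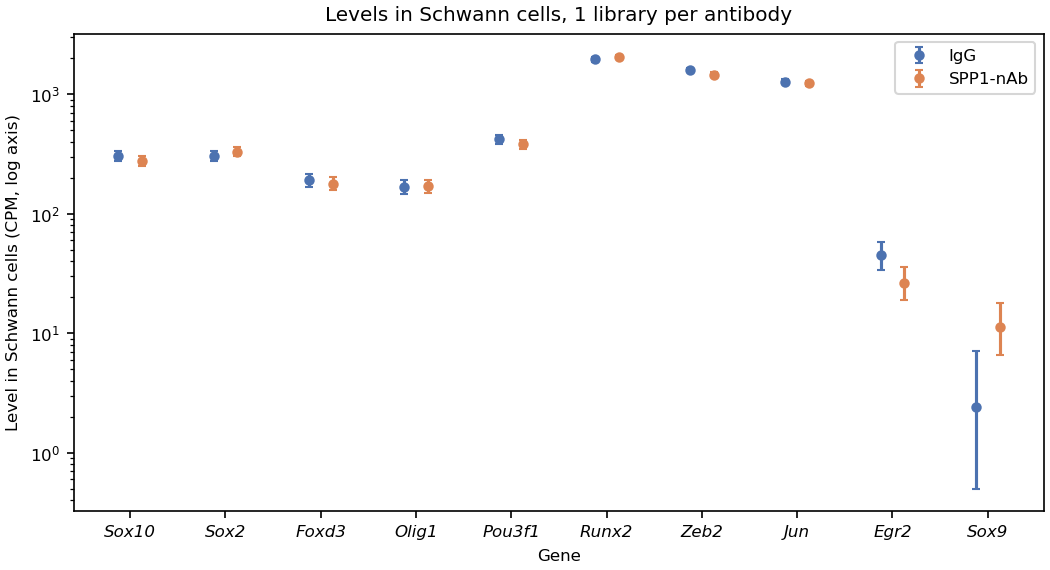
Points give the level of each factor in Schwann cells in CPM on a log axis for the IgG and SPP1-nAb libraries, and bars give 95% counting intervals. The intervals of 8 factors lie close together, *Egr2* is at 45.0 and 26.5 CPM, and *Sox9* is at 2.41 and 11.3 CPM.

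The antibodies were also compared within the *Reln* groups. *Foxd3* was lower in SPP1-nAb among *Reln*-positive cells, at -0.44 (-0.82 to -0.07), and was at 0.23 (-0.13 to 0.59) among *Reln*-negative cells. *Zeb2* was at -0.20 (-0.33 to -0.07) and -0.07 (-0.19 to 0.06) in the same order, and *Runx2* at -0.03 (-0.13 to 0.07) and 0.14 (0.03 to 0.26). *Pou3f1* was at -0.13 (-0.45 to 0.18) and -0.10 (-0.31 to 0.11). Of the factors with at least 20 UMIs none passed 2-fold, *Egr2* in *Reln*-negative cells coming nearest at -0.98, where 4.84% of genes did in the positive and 5.86% in the negative cells. *Sox9*, with 2 UMIs in IgG and 16 in SPP1-nAb, was under that minimum and was at 2.63 (0.54 to 5.79) in *Reln*-positive cells.

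Among the 23 related factors, 1 passed 2-fold, *Pou3f2*, with 15 UMIs in IgG and 5 in SPP1-nAb, beside 4.27% of all genes. The intervals of 3 lay above 0 and of 4 below it. The share of all genes with an interval clear of 0 was not computed. These counts, and those of the repair effectors below, thus have no background to be read against. Those above were *Sox4*, at 0.26 (0.09 to 0.43), *Atf3*, at 0.22 (0.12 to 0.32), and *Notch1*, at 0.50 (0.17 to 0.83). Those below, besides *Pou3f2*, were the immediate-early genes *Egr1*, at -0.38 (-0.55 to -0.22), *Egr3*, at -0.86 (-1.61 to -0.14), and *Fos*, at -0.14 (-0.22 to -0.07). Of 11 repair effectors none passed 2-fold, and the intervals of 4 lay above 0, among them the growth-cone protein *Gap43*, at 0.27 (0.15 to 0.39), the neurotrophin receptor *Ngfr*, at 0.20 (0.04 to 0.36), and *Fgf5*, at 0.66 (0.29 to 1.04). The interval of 1 lay below 0, that of *Ncam1*, at -0.45 (-0.72 to -0.17).

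*Jun* was nearly level between the antibodies in Schwann cells and lower with SPP1-nAb in most other classes, a difference between classes that could not be tested over libraries. In phagocytes it was at 697 CPM with IgG and 319 CPM with SPP1-nAb, a log2 ratio of -1.13 (-1.15 to -1.11), and in muscle progenitors at 1749 and 1106 CPM, a ratio of -0.66 (-0.71 to -0.61). The ratio was -0.40 (-0.54 to -0.26) in endothelial cells, -0.38 (-0.58 to -0.18) in mural cells, -0.21 (-0.28 to -0.14) in tenocytes and -0.10 (-0.14 to -0.07) in fibroblasts. Conventional dendritic cells, with 227 and 157 *Jun* UMIs, were at -0.56 (-0.87 to -0.26). In Schwann cells the ratio was -0.05 (-0.14 to 0.05). That interval lay above those of phagocytes, muscle progenitors, conventional dendritic, endothelial and mural cells, without overlap. Neutrophils, with 52 and 192 *Jun* UMIs, were at 0.52 (0.07 to 0.99), above the Schwann cell interval.

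*Fos*, the partner of JUN in AP-1, was at -1.05 (-1.22 to -0.87) in neutrophils, -0.91 (-0.92 to -0.90) in phagocytes and -0.89 (-0.93 to -0.86) in muscle progenitors. It was at -0.67 in conventional dendritic cells, -0.41 in fibroblasts, -0.40 in tenocytes and -0.39 in endothelial cells. In Schwann cells it was at -0.14 (-0.22 to -0.07) and in mural cells at -0.05 (-0.18 to 0.07). *Atf3* was at -0.66 (-0.68 to -0.65) in phagocytes and 0.22 (0.12 to 0.32) in Schwann cells, but also at 0.21 (-0.05 to 0.47) in tenocytes and 0.06 (-0.16 to 0.29) in neutrophils. *Egr1* was at -0.38 (-0.55 to -0.22) in Schwann cells, beside -0.30 in mural and -0.47 in endothelial cells. Its ratio was lower in phagocytes, at -1.19, neutrophils, at -0.90, muscle progenitors, at -0.89, and conventional dendritic cells, at -0.72. Fibroblasts were at -0.63 and tenocytes at -0.51. T and NK cells, with 11 and 18 UMIs, were at -0.32.

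The ratio of *Runx2* was 0.06 (-0.02 to 0.14) in Schwann cells. *Runx2* was higher in SPP1-nAb in fibroblasts, at 55.2 and 110.3 CPM with a ratio of 1.00 (0.84 to 1.16). It was also higher in muscle progenitors, at 29.9 and 55.9 CPM with a ratio of 0.90 (0.63 to 1.18). *Egr2* was lower in phagocytes, at -0.42 (-0.47 to -0.36), and higher in fibroblasts, at 0.52 (0.34 to 0.70). *Zeb2* was lower in fibroblasts, at -0.38 (-0.44 to -0.32), and in muscle progenitors, at -0.34 (-0.42 to -0.27), and nearly equal in phagocytes, at -0.03 (-0.04 to -0.02). *Sox9* was lower in fibroblasts, at -0.69 (-0.85 to -0.54), and higher in muscle progenitors, at 0.40 (0.23 to 0.56). There were 2157 IgG and 812 SPP1-nAb fibroblasts, with a median of 4801 and 7548 UMIs, and 1882 and 1227 muscle progenitors. Whether the mix of cells within these classes differed between the libraries was not tested.

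**Figure D4:**
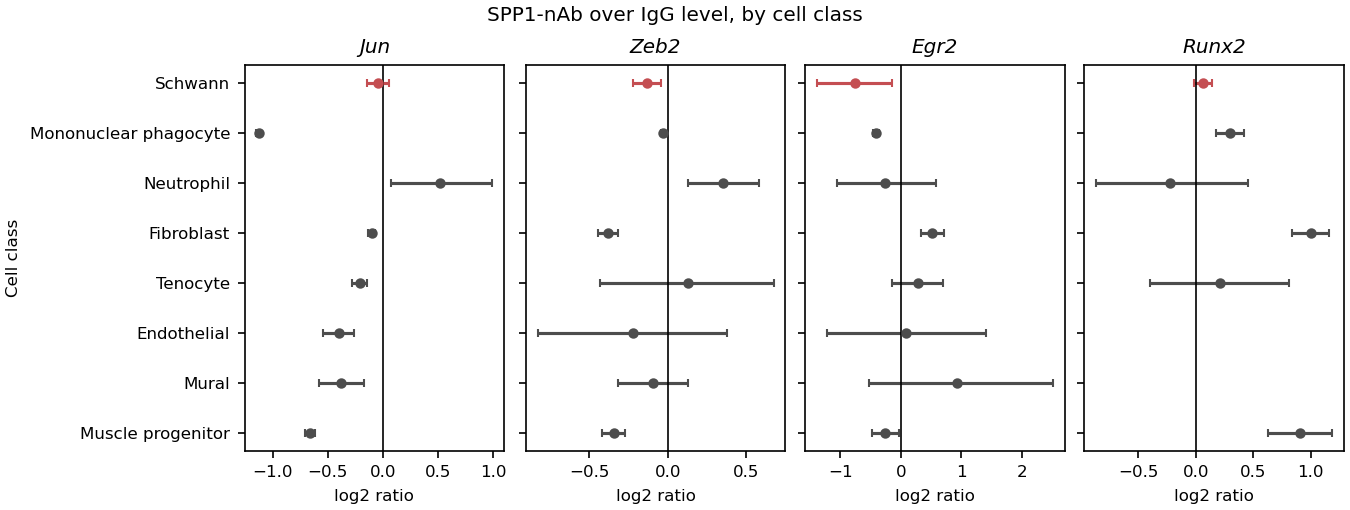
Each panel gives, for 1 factor, the log2 ratio of the level in SPP1-nAb over IgG (x axis) in 8 cell classes (y axis), with 95% counting intervals, Schwann cells in red, and classes with under 5 UMIs in either library left out. *Jun* in Schwann cells lies at -0.05 and in phagocytes at -1.13, and *Runx2* in fibroblasts at 1.00.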

How the data were processed

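The authors deposited, for each of the 2 samples, a filtered count matrix with UMI counts per gene and barcode. The submitters' processing notes named Cell Ranger 8.0.0 and the GRCm39 build, whereas the file header named version 9.0.1. Deposited counts summed to 97607674 (IgG) and 127719916 (SPP1-nAb).

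Kept barcodes had over 200 genes detected, and mitochondrial transcripts made up under 10% of their UMIs. A cell was gated to a class by at least 3 markers of 1 class. Barcodes that met several gates (5.82% and 5.49%) were left out as possible doublets, no doublet caller was run, and 2229 and 2134 barcodes met no gate. The gate rule was set after the values were seen.

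Counts were summed per class and library and scaled to CPM, with exact Poisson intervals, exact conditional binomial intervals for ratios and Clopper-Pearson intervals for shares. A gene counted toward the share of all genes past 2-fold with at least 20 UMIs in each library compared (over both libraries for SPP1-nAb against IgG). The floor for a count of 0 was 3 counts. Scripts were tested on simulated data and run in Python 3.11.15 with numpy 2.4.6, scipy 1.17.1 and pandas 2.3.3. Coordinates and promoter windows came from GENCODE M39 and the GRCm39 genome, and 31674 of 32287 gene identifiers matched.

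The members, the gene lists and the splits were chosen with earlier results of these data known. All 10 members were named, along with some of the list genes of at least 20 Schwann cell UMIs. Some of the 3 genes most like each member of at least 100 UMIs were named too. The mouse replicates and the sorted fractions within a library were not separable.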

Additional observations from a re-analysis of the deposited data

Results flagged for a closer look

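In 4 cases a ratio of SPP1-nAb over IgG pointed the other way in another cell class than in Schwann cells, with both counting intervals clear of 0. *Egr2* was at 0.52 in fibroblasts and -0.76 in Schwann cells. *Zeb2* was at 0.35 in neutrophils, at 0.21 in conventional dendritic cells and at -0.13 in Schwann cells. *Sox9* was at -0.69 in fibroblasts and 2.22 in Schwann cells. The share of all genes with such a reversal was not computed, so the count has no background to be read against. In Schwann cells the intervals of *Egr2* and *Zeb2* included 0 with thinned cells, and *Sox9* had only 3 and 17 UMIs there. These differences between classes were not tested, since each antibody had 1 library.

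*Sox10* UMIs were also found in barcodes that met the Schwann cell gate and a second gate and were left out of the comparisons. In the 71 IgG and 102 SPP1-nAb barcodes that also met the phagocyte gate, *Sox10* was at 74.1 CPM (53.4 to 100.1) and 76.6 CPM (59.9 to 96.5), with a median of 7641 and 8875 UMIs per barcode. In the 177 and 88 barcodes that also met the fibroblast gate it was at 7.75 CPM (3.72 to 14.3) and 13.9 CPM (7.17 to 24.2). The levels in gated Schwann cells were 305 and 277 CPM. How many of these barcodes held 2 cells was not tested.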

How the results depend on the processing

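Each result was recomputed with a gate of 2 or 4 markers, with barcodes of several classes kept, with stricter gene or mitochondrial limits, without the 10% deepest Schwann cells, with another scaling total, with free RNA removed (1.60% and 2.25% of Schwann cell UMIs in IgG and SPP1-nAb), and with thinned cells. The part of free RNA was estimated from the phagocyte markers in gated Schwann cells. Barcodes that also met the phagocyte gate had been left out, so this estimate was partly set by the gate. The omission of shared barcodes and of Schwann cells with other markers were added after seeing the data. No ratio whose interval excluded 0 changed sign. Of 109 antibody ratios, 108 stayed within the interval first computed, and the exception was *Egr2* without cells holding other markers, at -0.08. Of those 109, 5 intervals that had excluded 0 came to include it (*Egr2* and *Zeb2*), and 8 that had included 0 came to exclude it (*Sox10*, *Pou3f1*, *Sox2* and *Runx2*). Of the *Reln* ratios 245 stayed and 12 moved, and among them 20 intervals came to include 0 and 5 to exclude it. Of the Schwann cell over other class ratios 176 stayed and 43 moved. The count of genes past 2-fold between *Reln* groups was 444 and became 278 with thinned cells, 252 with a minimum of 50 UMIs and 236 without cells holding other markers. That between antibodies was 408 and became 94 with a minimum of 50 UMIs. The 34 other recomputed counts of genes stayed within 1.5 times. Of 40 shares, 32 moved when cells were thinned to 1000 or 3000 UMIs, since the share with a UMI follows the depth. No paired analysis was possible because each antibody had 1 library, and no replicate could be left out for the same reason. Depth limits *Egr2* and *Sox9* most, with 96 and 20 UMIs over both libraries.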

Other observations

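The genes that code for partners of these factors added 2 measurements. *Sox6* was at 655 and 659.9 CPM in the Schwann cells of IgG and SPP1-nAb and was 6.28 and 6.92 log2 units above all other gated cells, close to the 6.42 and 6.28 of *Runx2*. The neural crest factor *Tfap2a* had only 59 and 78 UMIs in Schwann cells but was 8.10 and 8.77 log2 units above the other cells, and its ratio between *Reln* groups was 0.43 (-0.35 to 1.23) in IgG and 0.85 (0.15 to 1.57) in SPP1-nAb.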
